A study of Homo sapiens with 18 samples.

Results

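The response of a podocyte line to inflammatory cytokines was compared between a fractal and a smooth culture surface. The quantity is an interaction, the log2 change with cytokines on fractal topography minus the same change on smooth topography. It rests on 12 of the 18 libraries of the series, chosen by their labels, with 3 in each of 4 groups. These were fractal topography with cytokines, fractal control, smooth topography with cytokines and smooth control. All 12 held PODO/TERT256, a human podocyte line carrying telomerase, grown on 3D hemispheres. The cytokines were TNF-α and IL-6, given together, at a dose and for a time not given in the sources used here. Another 6 libraries, from cells exposed to THP-1 macrophages, entered the model only so that all groups shared 1 estimate of the spread. All libraries came from 1 line. Whether the 3 libraries of a group stem from separate cultures is not stated, and the spread behind the p-values may therefore be technical.

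Podocytes are the epithelial cells that wrap the capillaries of the kidney glomerulus. TNF-α binds its receptors and activates the IκB kinases, which release NF-κB into the nucleus. NF-κB switches on chemokines, adhesion molecules and, as feedback, its own inhibitors, among them IκBα (NFKBIA) and A20 (TNFAIP3). IL-6 acts through gp130 and JAK kinases on STAT3, whose known targets include the feedback inhibitor SOCS3 and acute phase genes. A positive interaction means that the cytokine change was more positive on fractal topography, and a negative one that it was more negative there. It compares fold changes, not gains in counts.

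Library totals over the 12 libraries ran between 13990684 and 21264180 counts. Levels below are CPM, counts scaled to a common library size by TMM, and a gene is called where its adjusted p is under 0.05. The podocyte label rests on part of the marker list: SYNPO (synaptopodin) averaged 114 ± 8.9 CPM with cytokines and 69.1 ± 2.5 CPM in controls on fractal topography (SD, n = 3 each), whereas the nephrin gene NPHS1 had 3 counts in all 12 libraries. The smooth cytokines library numbered 2 stood apart. Mitochondrially encoded genes took 8.093% of its counts, with a 95% Wilson interval between 8.08 and 8.106%, where the other 11 libraries had between 3.856% and 4.625%. A chi-square per degree of freedom against counting error was 35.9 and 36.6 for its pairs and 12.4 for the pair without it. The same value was 5.68 to 7.67 within the fractal cytokines libraries and 2.52 to 3.38 within controls. Of the 85 called genes chosen for naming, 76 were also called without that library, all 85 kept their sign, and the log2 interaction moved by at most 0.55. The exceptions were BMP4, H2BC21, CDA, PSME1, BTG2, NUAK2, ITGB4, MCM4 and PLA2G4A. Their calls were lost in 7 to 13 of 21 alternative fits, and so did not rest on that library alone.

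Promoter sequences of 7 genes that carry the result are shown first, as RefSeq gives them on GRCh38.p14. Each window runs 250 bases before to 50 bases after the annotated start. CXCL6 (chr4:73836428-73836727, plus strand) and CXCL5 (chr4:73998628-73998927, minus strand) encode neutrophil-attracting chemokines and had the most negative interactions of their family. CXCL1 (chr4:73869143-73869442, plus strand) is another member. In these 3 the capitals mark 2 overlapping matches to the NF-κB consensus, which together span 11 bases. The match starts 90 bases before the annotated start in CXCL6, 91 bases before it in CXCL5 and 79 bases before it in CXCL1.
CXCL6: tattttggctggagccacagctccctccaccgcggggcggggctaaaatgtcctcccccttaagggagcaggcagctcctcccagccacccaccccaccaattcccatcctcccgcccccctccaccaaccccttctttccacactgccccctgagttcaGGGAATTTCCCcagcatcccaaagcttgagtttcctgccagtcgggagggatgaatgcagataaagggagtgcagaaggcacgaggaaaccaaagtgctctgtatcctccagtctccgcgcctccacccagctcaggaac
CXCL5: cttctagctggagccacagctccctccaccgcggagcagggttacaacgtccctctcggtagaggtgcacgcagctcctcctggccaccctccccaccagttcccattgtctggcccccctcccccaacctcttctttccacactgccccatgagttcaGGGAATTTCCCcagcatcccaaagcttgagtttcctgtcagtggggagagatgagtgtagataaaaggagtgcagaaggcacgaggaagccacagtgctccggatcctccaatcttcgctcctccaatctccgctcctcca
CXCL1: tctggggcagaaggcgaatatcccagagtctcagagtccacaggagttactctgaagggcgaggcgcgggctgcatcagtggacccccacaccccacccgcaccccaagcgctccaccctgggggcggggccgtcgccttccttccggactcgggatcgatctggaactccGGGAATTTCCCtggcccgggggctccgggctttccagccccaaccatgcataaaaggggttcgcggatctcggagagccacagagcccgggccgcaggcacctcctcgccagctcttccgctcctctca
The CXCL6 and CXCL5 windows share an identical run of 45 bases that holds this match. A match to the STAT motif TTCNNNGAA also lies inside the run, where it overlaps the first bases of the NF-κB match.

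Neither the ICAM1 (chr19:10270870-10271169, plus strand) nor the CXCL8 (chr4:73740319-73740618, plus strand) window held a match to the same NF-κB consensus, although both genes had strongly negative interactions. The consensus requires a G at its first base. The ICAM1 window holds tggaaattcc and the CXCL8 window tggaatttcc, and each misses the consensus only at that base. A missing match here therefore does not mean a missing NF-κB site. The capitals mark the STAT motif TTCNNNGAA in ICAM1 and the AP-1 motif TGANTCA in CXCL8.
ICAM1: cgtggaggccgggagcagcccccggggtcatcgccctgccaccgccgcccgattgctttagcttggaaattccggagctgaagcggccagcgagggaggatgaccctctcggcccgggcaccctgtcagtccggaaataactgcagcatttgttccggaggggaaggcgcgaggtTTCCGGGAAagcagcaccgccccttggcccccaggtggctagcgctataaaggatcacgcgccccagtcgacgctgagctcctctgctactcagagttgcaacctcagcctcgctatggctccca
CXCL8: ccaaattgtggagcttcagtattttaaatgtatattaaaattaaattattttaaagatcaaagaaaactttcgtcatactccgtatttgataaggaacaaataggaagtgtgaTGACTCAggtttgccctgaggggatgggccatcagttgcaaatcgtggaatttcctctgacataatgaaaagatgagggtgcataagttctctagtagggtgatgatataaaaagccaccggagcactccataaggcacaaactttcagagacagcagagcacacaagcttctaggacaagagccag
The collagen genes COL4A3 (chr2:227164374-227164673, plus strand) and COL4A4 (chr2:227164156-227164455, minus strand) are transcribed away from each other, from starts 419 bases apart, and both had positive interactions. The capitals mark the 82 bases that both windows hold, each read on its own gene's strand.
COL4A3: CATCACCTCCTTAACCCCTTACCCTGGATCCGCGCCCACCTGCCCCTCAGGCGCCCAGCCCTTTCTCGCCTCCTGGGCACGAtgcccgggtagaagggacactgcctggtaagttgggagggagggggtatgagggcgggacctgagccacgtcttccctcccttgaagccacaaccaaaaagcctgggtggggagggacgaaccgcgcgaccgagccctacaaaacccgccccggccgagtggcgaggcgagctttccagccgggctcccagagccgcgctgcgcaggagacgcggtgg
COL4A4: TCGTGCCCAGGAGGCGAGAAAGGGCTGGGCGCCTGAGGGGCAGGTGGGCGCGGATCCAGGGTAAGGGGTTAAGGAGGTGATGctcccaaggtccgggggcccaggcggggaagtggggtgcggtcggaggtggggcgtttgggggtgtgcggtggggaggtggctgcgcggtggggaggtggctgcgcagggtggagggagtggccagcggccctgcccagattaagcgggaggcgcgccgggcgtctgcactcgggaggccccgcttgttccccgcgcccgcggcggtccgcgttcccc
Over all 22114 windows, TTCNNNGAA occurred in 8.18% and TGANTCA in 8.05%, on either strand. Over the windows of tested genes alone, the shares were 6.72% and 4.61%. The NF-κB consensus occurred in 12.7% of the 8143 windows of tested genes and in 10.5% of all 22114 windows. It occurred in 15.7% of the 108 windows of genes with a called positive interaction and in 22.5% of the 129 windows of genes with a called negative one. Windows were at hand for 237 of the 436 called genes. Of the 15 windows of called NF-κB or CXC chemokine list members, 10 held the consensus, but those lists were written from known NF-κB targets and are not independent of the motif. These 15 windows are among the 129 of genes with a called negative interaction, so the 22.5% includes them. They supply 10 of its 29 windows with a match, and the gap between 22.5% and 15.7% rests largely on them. A match is a description of the letters, not of binding.

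The interaction was called for 436 of 16129 genes tested (2.7%), of which 416 are protein-coding. It was positive for 206 genes (1.28%) and negative for 230 (1.43%). A further view is the unadjusted p, which was under 0.05 for 2162 genes. By the same rule, cytokines raised 2089 genes (13%) and lowered 2078 (12.9%) on fractal topography. On smooth topography they raised 2136 (13.2%) and lowered 2008 (12.4%). The counts of called interactions depended on the libraries in the fit. They were 983 in a fit of the 12 libraries alone, 1461 without smooth cytokines 2 and fractal THP-1 3, and 271 without fractal control replicate 2.

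Among the 230 genes with a negative interaction, 93 rose on smooth topography and were not called on fractal topography. Another 52 rose on both, 53 fell on fractal topography and were not called on smooth, 24 fell on fractal and rose on smooth, and 8 fell on both. Among the 206 genes with a positive interaction, 74 fell on smooth topography and were not called on fractal. A further 60 rose on fractal topography and were not called on smooth, 28 rose on both, 23 fell on both and 21 rose on fractal and fell on smooth. A response called on 1 topography alone is counted here only because the difference itself passed the test.

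**Figure D1:**
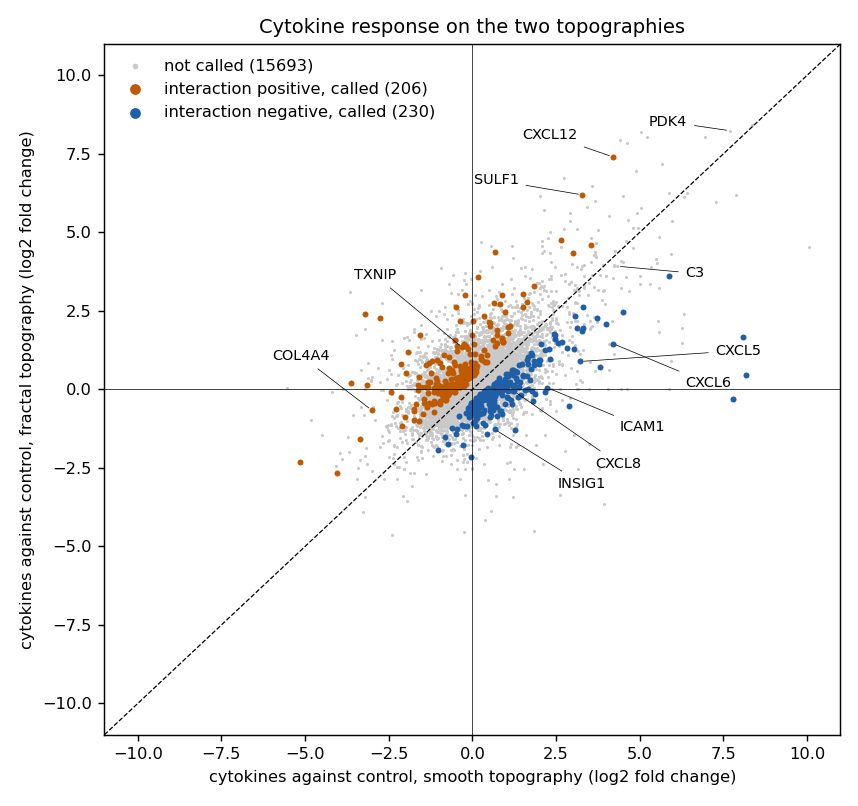
Each point is a gene, placed by its log2 fold change with cytokines on smooth topography (x axis) and on fractal topography (y axis), with the dashed line where both are equal. The 206 genes with a called positive interaction lie above the line, the 230 with a called negative one below it, and the 15693 genes without a call are grey.

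Cytokines did not produce a uniformly smaller response on fractal topography. Averaged over both topographies, 3089 genes rose with cytokines (19.2%) and 2952 fell (18.3%), which makes 6041 responsive genes. Across these, the interaction signed by the direction of the mean effect had a median of 0.0048 on the log2 scale, with quartiles at -0.21 and 0.19. The fractal response was the smaller one for 49.38% of them. The median size of the response was 0.46 on fractal and 0.47 on smooth topography. Among responsive genes with a called interaction the fractal response was the smaller one for 198 and the larger one for 113. Of those that rose with cytokines, 122 had the smaller response on fractal topography and 70 the larger. Of those that fell, the numbers were 76 and 43. The remaining 125 called genes were not called in the mean effect.

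The neutrophil-attracting CXC chemokines, which recruit neutrophils through the receptors CXCR1 and CXCR2, had the lowest list median. Of 7 members tested, 6 had a called negative interaction (CXCL1, CXCL2, CXCL3, CXCL5, CXCL6 and CXCL8) and none a positive one, against 1.43% negative over all genes. The median interaction of the list was -1.42, against 0.0066 over all genes tested. The median change with cytokines was 0.89 on fractal and 1.85 on smooth topography. The genes of CXCL1, CXCL5, CXCL6 and CXCL8 lie together on chromosome 4, between 73740506 (CXCL8) and 73998779 (CXCL5) in GENCODE 29 on GRCh38. Reads shared by such close relatives leave the level of each member uncertain.

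CXCL6 (chr4:73836497-73849064) on fractal topography had 99.5, 109 and 141 CPM with cytokines, against 39.6, 44.9 and 42.1 CPM in the fractal controls. On smooth topography, CXCL6 had 1058, 861 and 1269.5 CPM with cytokines, against 56.6, 62.7 and 55.2 CPM in the smooth controls. The smooth cytokines libraries lay far above all others, the fractal cytokines libraries came next, and no groups overlapped. Its interaction was -2.73 ± 0.18 (adjusted p = 8.51e-09), with a change of 1.46 ± 0.13 on fractal and 4.19 ± 0.14 on smooth topography (log2 ± SE, n = 3 libraries per group, as for all values of this form). CXCL5 had 54.8, 56.2 and 64 CPM with cytokines on fractal topography, against 29.4, 30.8 and 34.3 CPM in the fractal controls. With smooth topography, CXCL5 had 252, 242 and 334 CPM with cytokines, against 31.2, 30.3 and 27.4 CPM in the smooth controls. The controls of both topographies overlapped, and the groups parted with cytokines, with an interaction of -2.33 ± 0.19 (adjusted p = 6.03e-08). CXCL1 had 389, 433 and 477 CPM with cytokines on fractal topography, against 171, 171 and 174 CPM in the fractal controls. On smooth topography, CXCL1 had 1632, 1496 and 1859 CPM with cytokines, against 228, 231 and 238 CPM in the smooth controls. Both topographies showed a rise, and the interaction was -1.51 ± 0.12 (adjusted p = 2.8e-08).

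CXCL8 encodes interleukin 8 and was the most abundant of the family. On fractal topography, CXCL8 had 649.6, 606 and 760.1 CPM with cytokines, against 661, 720.1 and 725 CPM in the fractal controls. On smooth topography, CXCL8 had 2071, 2235 and 2184 CPM with cytokines, against 907, 923 and 898 CPM in the smooth controls. The fractal cytokines and fractal control libraries overlapped, whereas every smooth cytokines library lay above every smooth control. The change was -0.06 ± 0.08 on fractal and 1.25 ± 0.08 on smooth topography, and the interaction was -1.31 ± 0.11 (adjusted p = 6.18e-08). CXCL2 and CXCL3 had interactions of -1.09 ± 0.22 (adjusted p = 0.00445) and -1.42 ± 0.24 (adjusted p = 0.000898). CXCL16, which binds CXCR6 rather than the neutrophil receptors, had 0.73 ± 0.52 (adjusted p = 0.623).

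Of the 39 NF-κB and TNF targets tested, 17 had a called negative interaction and none a positive one, against 1.43% negative over all genes. The list median was -0.70, and 35 of the 39 values were negative. The median change was -0.06 on fractal and 0.64 on smooth topography. On smooth topography 25 members rose and 3 fell, against 13.2% and 12.4% of all genes. On fractal topography 10 rose and 8 fell, against 13% and 12.9% of all genes. This list and the CXC list were chosen with earlier results of these data known, and their counts are descriptions.

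ICAM1, the endothelial and epithelial receptor for leukocyte integrins, had the smallest adjusted p of the genes named here. It had 25, 21.9 and 23.7 CPM with cytokines on fractal topography, against 23.2, 22.5 and 22.2 CPM in the fractal controls. On smooth topography, ICAM1 had 87.9, 81.8 and 75 CPM with cytokines, against 15.8, 17.5 and 18.6 CPM in the smooth controls. The fractal values overlapped with and without cytokines, and the smooth cytokines libraries lay above every other library. The change was 0.05 ± 0.09 on fractal and 2.24 ± 0.09 on smooth topography, and the interaction was -2.19 ± 0.13 (adjusted p = 1.42e-10). ICAM1 (chr19:10270835-10286615) overlaps 2 annotated genes on the other strand, whose reads cannot be separated in these unstranded libraries. VCAM1, the receptor for VLA-4, moved otherwise. On fractal topography, VCAM1 had 393, 333 and 407 CPM with cytokines, against 644, 643 and 647 CPM in the fractal controls. On smooth topography, VCAM1 had 674, 632 and 518 CPM with cytokines, against 566, 574 and 573 CPM in the smooth controls. It fell on fractal topography (-0.77 ± 0.09), the smooth groups overlapped (0.09 ± 0.09), and the interaction was -0.86 ± 0.13 (adjusted p = 0.000252).

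Inhibitors of NF-κB were among the called genes. NFKBIA, which holds NF-κB in the cytoplasm, had 60.3, 66.7 and 68.7 CPM with cytokines on fractal topography, against 38.8, 38.6 and 34.1 CPM in the fractal controls. On smooth topography, NFKBIA had 131, 144 and 139 CPM with cytokines, against 40.9, 45 and 44.3 CPM in the smooth controls. NFKBIA rose on both topographies, by less on fractal, with an interaction of -0.86 ± 0.13 (adjusted p = 0.000135). TNFAIP3, a ubiquitin-editing brake on TNF signalling, had 200.3, 212 and 211 CPM with cytokines on fractal topography, against 116, 118 and 122 CPM in the fractal controls. On smooth topography, TNFAIP3 had 554, 494 and 611 CPM with cytokines, against 136, 139 and 144 CPM in the smooth controls. The smooth cytokines libraries were again the highest, and the interaction was -1.17 ± 0.11 (adjusted p = 3.18e-07). TNIP1, a partner of A20, had -0.83 ± 0.12 (adjusted p = 0.000135), and ZC3H12A, an RNase that degrades inflammatory mRNA, had -0.70 ± 0.13 (adjusted p = 0.00159). The NF-κB subunit genes NFKB1 and NFKB2 had -0.77 ± 0.13 (adjusted p = 0.000465) and -1.06 ± 0.17 (adjusted p = 0.000406). RELA, with -0.17 ± 0.14 (adjusted p = 0.707), and RELB, with -0.54 ± 0.16 (adjusted p = 0.0843), did not pass.

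BIRC3 encodes a ubiquitin ligase of the TNF receptor complex. On fractal topography, BIRC3 had 56.2, 55.5 and 72.9 CPM with cytokines, against 73.4, 76.4 and 75.7 CPM in the fractal controls. On smooth topography, BIRC3 had 216, 179.7 and 186 CPM with cytokines, against 92.8, 93.4 and 91.9 CPM in the smooth controls. It fell on fractal and rose on smooth topography, with changes of -0.29 ± 0.10 and 1.06 ± 0.10 and an interaction of -1.35 ± 0.14 (adjusted p = 7.92e-07). IL6, the gene of one of the cytokines that were added, had 54.5, 59 and 64.9 CPM with cytokines on fractal topography, against 23.9, 23.6 and 26 CPM in the fractal controls. On smooth topography, IL6 had 155, 156 and 183 CPM with cytokines, against 34.6, 32.7 and 33.9 CPM in the smooth controls. Both topographies showed a rise, to the highest levels on smooth, and the interaction was -1.01 ± 0.13 (adjusted p = 2.05e-05). SOD2, the mitochondrial superoxide dismutase, had 321, 349 and 392 CPM with cytokines on fractal topography, against 88.5, 91.7 and 91 CPM in the fractal controls. On smooth topography, SOD2 had 1006, 801 and 989 CPM with cytokines, against 107, 111 and 105 CPM in the smooth controls. Both cytokines groups lay above both control groups, and the interaction was -1.15 ± 0.15 (adjusted p = 3.26e-05). IL6, SOD2 and TNFAIP3 also overlap genes on the other strand.

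The other called members were CD83 (-2.18 ± 0.40), an activation marker of antigen-presenting cells, IL32 (-1.16 ± 0.15), CD40 (-0.75 ± 0.13), PTGS2, TNFAIP2 (-0.75 ± 0.17) and RIPK2 (-0.56 ± 0.13). Members that did not pass included NFKBIZ (-0.03 ± 0.14), BCL3 (0.09 ± 0.18), CFLAR (-0.20 ± 0.11), TNFAIP6 (-0.01 ± 0.34) and LIF (-0.09 ± 0.10), with adjusted p between 0.446 and 1. Thus the list was not uniform, and NFKBIZ had changes of 0.88 ± 0.10 on fractal and 0.91 ± 0.10 on smooth topography. None of the 22 tested genes of the TNF and IL-6 receptors and their signalling proteins was called, which is near the 2.7% over all genes, and their median interaction was -0.05. Without the smooth cytokines library numbered 2, 2 of them were called negative. TNFRSF1A, the main TNF receptor gene, had 0.19 ± 0.11 (adjusted p = 0.504).

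**Figure D2:**
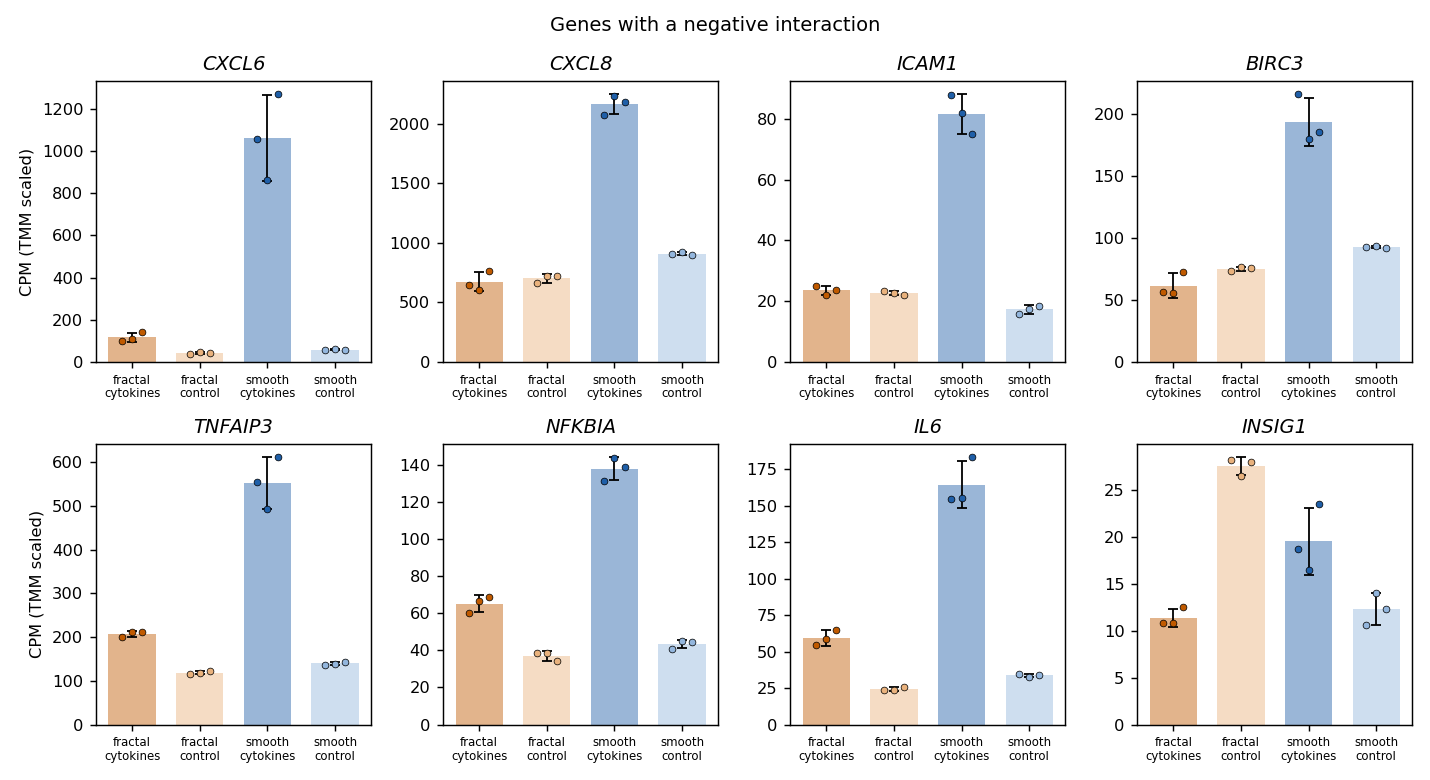
CPM of 8 genes with a called negative interaction in the 12 libraries, with points for libraries, bars for means and error bars for the SD of 3 libraries. For CXCL6, CXCL8, ICAM1, BIRC3, TNFAIP3, NFKBIA and IL6 the smooth cytokines libraries are the highest, and for INSIG1 the fractal controls are.

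Of 7 tested CC chemokines and colony-stimulating factors, 2 had a called negative interaction and none a positive one, against 1.43% and 1.28% over all genes. CSF1, the growth factor of macrophages, had 96, 100.02 and 91.1 CPM with cytokines on fractal topography, against 59.9, 59.98 and 64.9 CPM in the fractal controls. On smooth topography, CSF1 had 189, 171 and 220.5 CPM with cytokines, against 57.6, 55 and 58.9 CPM in the smooth controls. CSF1 rose on both topographies, and the interaction was -1.12 ± 0.14 (adjusted p = 1.19e-05). CSF2, which encodes GM-CSF, was low. On fractal topography, CSF2 had 0.333, 0.676 and 0.827 CPM with cytokines, against 1.61, 1.64 and 1.28 CPM in the fractal controls. On smooth topography, CSF2 had 4.21, 6.02 and 11.9 CPM with cytokines, against 3.23, 3.22 and 2.68 CPM in the smooth controls. It fell on fractal and rose on smooth topography, with an interaction of -2.56 ± 0.50 (adjusted p = 0.00315). With limma-voom its adjusted p was 0.0603. CCL2, the main monocyte chemokine, had 14.6, 15.7 and 23.4 CPM with cytokines on fractal topography, against 15.6, 18 and 17.3 CPM in the fractal controls. On smooth topography, CCL2 had 96.5, 89.1 and 156 CPM with cytokines, against 34.1, 36.2 and 35.2 CPM in the smooth controls. The smooth cytokines libraries lay above all others, yet the interaction of -1.62 ± 0.43 (adjusted p = 0.0671) missed the threshold. It was called with DESeq2, in the fit of the 12 libraries alone and without the smooth cytokines library numbered 2, where it was -1.77.

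Markers of monocytes and macrophages were near the detection limit in these groups. Their summed level was 3.06 to 5.04 CPM in fractal cytokines libraries and 2.54 to 4.02 CPM in fractal controls. It was 7.5 to 8.29 CPM in smooth cytokines libraries and 2.41 to 3.05 CPM in smooth controls. Of the 15 markers 12 had any count, TYROBP, CD163 and AIF1 had 0 counts in all 12 libraries, and PTPRC (CD45) had none in the smooth libraries. None of the 9 tested markers was called, near the 2.7% over all genes. TYROBP was among the 9, passed the filter only through the THP-1 libraries and could not be called here. SPI1, PTPRC and ITGAM, also tested, had 5, 15 and 18 counts over the 12 libraries, which left little room for a call. The absence of calls therefore says little about these markers. Without the smooth cytokines library numbered 2, 1 marker was called negative. The sum in the smooth cytokines libraries was mostly CD74 and CD14, at 3.16 and 2.79 CPM. Endothelial and tubule markers, of which 5 and 3 were tested, also held no called gene, near the 2.7% over all genes.

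Of 18 IL-6 and STAT3 targets tested, 1 had a called positive interaction and none a negative one, and the median was 0.03. These counts are near the shares over all genes, 1.28% positive and 1.43% negative. SOCS3 had 27, 30.8 and 24.9 CPM with cytokines on fractal topography, against 14.1, 13.4 and 13.2 CPM in the fractal controls. On smooth topography, SOCS3 had 27.7, 26.4 and 27.3 CPM with cytokines, against 11.4, 13.9 and 11.5 CPM in the smooth controls. The cytokines groups overlapped each other, and so did the controls, with changes of 1.03 ± 0.12 and 1.14 ± 0.12 on fractal and smooth topography. The interaction was -0.12 ± 0.17 (adjusted p = 0.859). BCL6, a transcriptional repressor, was the called member, at 0.59 ± 0.15 (adjusted p = 0.0325), and lost the call in 9 of 21 alternatives. No acute phase gene was called among 9 tested, which is near the 2.7% over all genes. Their interactions ran from -0.92 to 2.32. Without the smooth cytokines library numbered 2, 1 acute phase gene was called positive. SAA1 had 8.51, 11.6 and 10.1 CPM with cytokines on fractal topography, against 0.172, 0.0939 and 0.116 CPM in the fractal controls. On smooth topography, SAA1 had 45, 35.7 and 48.8 CPM with cytokines, against 0.353, 0.23 and 1.01 CPM in the smooth controls. The controls were too low for a precise fold, and the interaction was -0.16 ± 1.42 (adjusted p = 0.986).

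Complement genes went in both directions. Of 15 tested, 2 were called positive and 2 negative, against 1.28% and 1.43% over all genes. CFB, a protease of the alternative pathway, rose by 1.84 ± 0.26 on fractal and 3.29 ± 0.25 on smooth topography, an interaction of -1.44 ± 0.37 (adjusted p = 0.0324) whose call was lost in 9 of 21 alternatives. C1QTNF1, a secreted protein with a C1q domain, had -1.16 ± 0.17 (adjusted p = 0.00012). CLU, the chaperone clusterin, had 1.32 ± 0.36 (adjusted p = 0.046) and lost the call in 12 of 21. C3, the central component, had 609, 637 and 606 CPM with cytokines on fractal topography, against 41.8, 40.1 and 40.1 CPM in the fractal controls. On smooth topography, C3 had 2099, 1293 and 2172 CPM with cytokines, against 97.8, 86.9 and 94 CPM in the smooth controls. The interaction of C3 was -0.40 ± 0.17 (adjusted p = 0.31), and it was called, at -0.60, without the smooth cytokines library numbered 2, which had the lowest C3 of its group.

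Of 17 tested genes of antigen presentation by MHC class I, 3 were called negative and none positive, against 1.43% and 1.28% over all genes. TAPBP, which encodes the peptide-loading factor tapasin, had 134, 129 and 129 CPM with cytokines on fractal topography, against 104, 97.8 and 102 CPM in the fractal controls. On smooth topography, TAPBP had 216, 235 and 243 CPM with cytokines, against 90.8, 98.6 and 91.9 CPM in the smooth controls. It rose on both topographies, with an interaction of -0.94 ± 0.11 (adjusted p = 5.25e-06). PSME1, a proteasome activator subunit, and ERAP1, a peptide-trimming protease, had -0.52 ± 0.13 (adjusted p = 0.0234) and -0.47 ± 0.12 (adjusted p = 0.0304) and lost their calls in 7 and 6 of 21 alternatives. HLA-B, with -0.05 ± 0.14, and B2M, with -0.06 ± 0.11, did not pass. Of 32 interferon response genes only IFIH1, the RNA sensor MDA5, was called, at -1.27 ± 0.28 (adjusted p = 0.0099), a share near the 1.43% over all genes. Without the smooth cytokines library numbered 2, 3 were called negative.

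**Figure D3:**
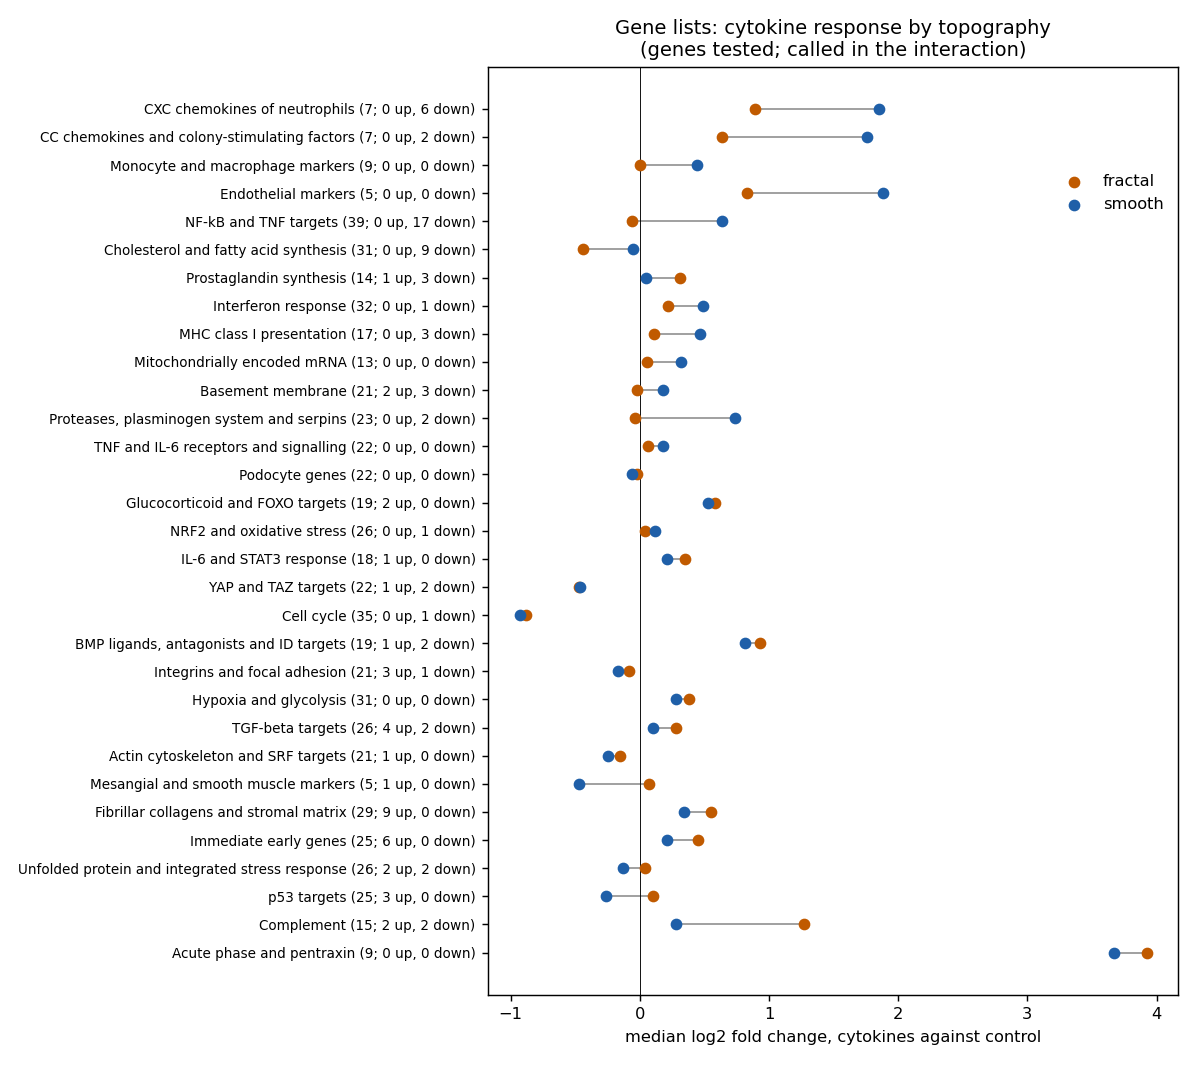
Median log2 fold change with cytokines on fractal and on smooth topography for each gene list with at least 5 tested members, with the number tested and the number with a called positive (up) or negative (down) interaction. Lists run by median interaction, with the most negative at the top. The CXC chemokines stand at 0.89 on fractal and 1.85 on smooth topography, and the cell cycle list at -0.88 and -0.93.

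Genes of sterol and fatty acid synthesis formed the second large group with negative interactions. Of 31 tested, 9 were called negative, among them IDI1, DHCR7, INSIG1, SREBF2, STARD4, SCD, FADS1 and FADS2, against 1.43% over all genes. None was positive, and the median was -0.40. On fractal topography 20 members fell with cytokines and none rose, against 12.9% and 13% of all genes. On smooth topography 4 fell and 4 rose, near the 12.4% and 13.2% of all genes. Between the controls, 11 of the 31 were higher on fractal topography and none lower, and with cytokines none was higher and 3 were lower. Over all genes the share called higher on fractal topography was 0.651% in controls and 1.72% with cytokines, and the share called lower was 1.12% and 2.74%.

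INSIG1 encodes the sterol sensor that retains SREBP in the endoplasmic reticulum. On fractal topography, INSIG1 had 10.8, 10.8 and 12.5 CPM with cytokines, against 28.2, 26.4 and 27.9 CPM in the fractal controls. On smooth topography, INSIG1 had 18.7, 16.4 and 23.4 CPM with cytokines, against 10.6, 14 and 12.3 CPM in the smooth controls. It fell on fractal and rose on smooth topography, the fractal controls were the highest group, and the interaction was -1.94 ± 0.20 (adjusted p = 7.78e-07). SCD, the stearoyl-CoA desaturase, had 72.9, 68.7 and 74.6 CPM with cytokines on fractal topography, against 275, 279 and 275 CPM in the fractal controls. On smooth topography, SCD had 65.7, 66.4 and 58.7 CPM with cytokines, against 126, 130.3 and 132 CPM in the smooth controls. It fell on both, and by more on fractal, with an interaction of -0.91 ± 0.11 (adjusted p = 9.54e-06). SREBF2, the transcription factor of the pathway, had -0.66 ± 0.13 (adjusted p = 0.0027).

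Prostaglandin genes differed in sign. Of 14 tested, 3 were called negative and 1 positive, against 1.43% and 1.28% over all genes. PTGS2, the inducible cyclooxygenase, had 336, 343 and 359.9 CPM with cytokines on fractal topography, against 67.8, 72 and 67.6 CPM in the fractal controls. On smooth topography, PTGS2 had 422, 425 and 290.2 CPM with cytokines, against 46.9, 43.6 and 44.3 CPM in the smooth controls. The cytokines groups overlapped, the fractal controls were higher than the smooth ones, and the interaction was -0.75 ± 0.16 (adjusted p = 0.00831). PTGES, the terminal synthase of prostaglandin E2, had 9.58, 13.4 and 12.8 CPM with cytokines on fractal topography, against 1.38, 0.845 and 0.699 CPM in the fractal controls. On smooth topography, PTGES had 27.9, 25.9 and 34.4 CPM with cytokines, against 0.47, 0.461 and 0.58 CPM in the smooth controls. Every smooth cytokines library lay above every fractal one, and the interaction was -2.25 ± 0.42 (adjusted p = 0.002), with an adjusted p of 0.0623 by limma-voom. PTGIS, the prostacyclin synthase, had 182, 177 and 189 CPM with cytokines on fractal topography, against 109.9, 113 and 113 CPM in the fractal controls. On smooth topography, PTGIS had 158, 147 and 166 CPM with cytokines, against 184, 186 and 187 CPM in the smooth controls. It rose on fractal and fell on smooth topography, with an interaction of 0.95 ± 0.10 (adjusted p = 7.89e-07). PLA2G4A, the phospholipase that releases arachidonic acid, had -0.74 ± 0.19 (adjusted p = 0.0351) and lost its call in 10 of 21 alternatives.

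Basement membrane genes also divided. Of 21 tested, 3 were called negative and 2 positive, against 1.43% and 1.28% over all genes. LAMB3, a laminin chain, had 58.7, 54.4 and 49.8 CPM with cytokines on fractal topography, against 79.8, 80.4 and 78.9 CPM in the fractal controls. On smooth topography, LAMB3 had 119, 111 and 109 CPM with cytokines, against 65.9, 73 and 64.2 CPM in the smooth controls. It fell on fractal and rose on smooth topography, with an interaction of -1.29 ± 0.16 (adjusted p = 1.13e-05). NID2, a nidogen that links laminin to collagen IV, had -0.67 ± 0.14 (adjusted p = 0.0058).

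The collagen IV chains α3 and α4, which belong to the mature glomerular basement membrane made by podocytes, had positive interactions. COL4A4 had 6.92, 5.59 and 5.85 CPM with cytokines on fractal topography, against 9.18, 10.8 and 9.08 CPM in the fractal controls. On smooth topography, COL4A4 had 1.22, 3.22 and 2.9 CPM with cytokines, against 18.6, 19.9 and 21 CPM in the smooth controls. It fell on both topographies, with changes of -0.66 ± 0.21 on fractal and -3.01 ± 0.23 on smooth, and the smooth controls were the highest group. The interaction was 2.34 ± 0.31 (adjusted p = 3.26e-05). COL4A3 was lower, with 1.13, 0.676 and 1.34 CPM with cytokines on fractal topography, against 0.803, 1.13 and 0.931 CPM in the fractal controls. On smooth topography, COL4A3 had 0.549, 0.239 and 0.273 CPM with cytokines, against 4.12, 2.99 and 2.46 CPM in the smooth controls. The fractal groups overlapped, the smooth controls lay above all others, and the interaction was 3.29 ± 0.66 (adjusted p = 0.00384). COL4A3 overlaps a gene on the other strand.

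Fibrillar collagens and stromal matrix formed the list with the most called positive interactions. Of 29 tested, 9 were positive (COL6A3, COL12A1, BGN, POSTN, VCAN, MFAP5, TGFBI, SULF1 and SULF2) and none negative, against 1.28% positive over all genes, and the median was 0.23. With cytokines 16 members rose and 1 fell on fractal topography, against 13% and 12.9% of all genes. On smooth topography 10 rose and 8 fell, against 13.2% and 12.4% of all genes. The called genes took different courses. COL12A1 rose on both, with changes of 1.39 ± 0.10 on fractal and 0.68 ± 0.10 on smooth topography. COL6A3 and VCAN fell on smooth topography, with -0.60 ± 0.10 and -0.55 ± 0.10, and were not called on fractal. POSTN (periostin) rose on fractal and fell on smooth, by small amounts, with an interaction of 0.63 ± 0.16 (adjusted p = 0.027).

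SULF1 and SULF2 are sulfatases that remove 6-O-sulfates from heparan sulfate. SULF1 had 26, 22.2 and 20.3 CPM with cytokines on fractal topography, against 0.459, 0.329 and 0.116 CPM in the fractal controls. On smooth topography, SULF1 had 9.82, 6.8 and 10.1 CPM with cytokines, against 0.941, 0.864 and 0.943 CPM in the smooth controls. It was under 1 CPM in every control, and the fractal cytokines libraries lay above all others, with an interaction of 2.92 ± 0.46 (adjusted p = 0.000323). SULF2 had 1.99 ± 0.33 (adjusted p = 0.000661). MFAP5, a microfibril protein, had 12.5, 11 and 13.4 CPM with cytokines on fractal topography, against 15.4, 15.2 and 13.4 CPM in the fractal controls. On smooth topography, MFAP5 had 6.04, 9.36 and 6.39 CPM with cytokines, against 26.9, 36.2 and 33.4 CPM in the smooth controls. It fell on smooth topography and was not called on fractal, with an interaction of 1.89 ± 0.24 (adjusted p = 1.52e-05). BGN, the proteoglycan biglycan, had 27.6, 22.5 and 21.5 CPM with cytokines on fractal topography, against 11.6, 13.1 and 15.2 CPM in the fractal controls. On smooth topography, BGN had 8.48, 8.65 and 6.45 CPM with cytokines, against 12.8, 16.3 and 17.1 CPM in the smooth controls. It rose on fractal and fell on smooth topography, with an interaction of 1.81 ± 0.27 (adjusted p = 0.000125).

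CXCL12 is a chemokine of stromal cells that binds CXCR4 and stood apart from the neutrophil chemokines. It had 22.7, 26.7 and 18.3 CPM with cytokines on fractal topography, against 0.172, 0 and 0.233 CPM in the fractal controls. On smooth topography, CXCL12 had 7.19, 8.71 and 8.47 CPM with cytokines, against 0.47, 0.288 and 0.58 CPM in the smooth controls. It rose on both topographies, the fractal cytokines libraries were the highest, and the interaction was 3.21 ± 0.64 (adjusted p = 0.00406). The low control counts make the fold imprecise, and its adjusted p was 0.0744 with limma-voom. CXCL12 (chr10:44370165-44386493) lies away from the chromosome 4 cluster. The genes with the other large positive interactions were also low in some groups. They were PTPRN (3.69 ± 0.83), a protein of secretory granules, PAPPA2 (3.12 ± 0.62), a protease of IGF-binding proteins, BMP4 (2.85 ± 0.71), a growth factor, DRAXIN (2.54 ± 0.35), an axon guidance protein, and INHBE (2.49 ± 0.48), an inhibin subunit. PTPRN lost its call without smooth control replicate 3 (adjusted p 0.0753), and BMP4 in 8 of 21 alternatives.

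Markers of mesangial and smooth muscle cells were summed beside the matrix genes. The sum stood at 309 to 321 CPM in fractal cytokines libraries and 287 to 295 CPM in fractal controls, and at 150 to 215 CPM in smooth cytokines libraries and 369 to 395 CPM in smooth controls. Of the 8 markers 6 had any count, ITGA8 and GATA3 had 0, and most of the sum was TAGLN. PDGFRB averaged 34 CPM with cytokines and 23.8 CPM in controls on fractal topography, and 19.2 CPM with cytokines and 15.7 CPM in controls on smooth topography. ACTA2 averaged 20.3 CPM with cytokines and 15.3 CPM in controls on fractal topography, and 19.8 CPM with cytokines and 17.4 CPM in controls on smooth topography. CNN1 fell on both topographies. TAGLN, an actin-binding protein and TGF-β target, had 260.3, 262 and 257 CPM with cytokines on fractal topography, against 245, 245 and 251 CPM in the fractal controls. On smooth topography, TAGLN had 129.8, 116 and 166 CPM with cytokines, against 334, 346 and 358 CPM in the smooth controls. It fell on smooth topography and was not called on fractal, with an interaction of 1.40 ± 0.22 (adjusted p = 0.000891). It was the 1 called gene of 21 actin and SRF targets, against 2.7% of all genes. The labels name only the podocyte line. Whether mesangial or smooth muscle cells were present, or had a part in the matrix result, was not tested.

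Of 26 TGF-β targets, 4 were called positive and 2 negative. The shares over all genes, for this list and those that follow here, were 1.28% positive and 1.43% negative. LTBP1, which stores latent TGF-β in the matrix, had 0.75 ± 0.17 (adjusted p = 0.0127), and TGFBI 0.52 ± 0.10 (adjusted p = 0.00305). PMEPA1, a feedback inhibitor of the pathway, had -0.66 ± 0.11 (adjusted p = 0.000325), and the receptor gene TGFBR1 -0.50 ± 0.12 (adjusted p = 0.0191), which lost its call in 3 of 21 alternatives. Of 19 BMP ligands, antagonists and ID targets, 1 was positive (BMP4) and 2 were negative. The negative ones were GREM1, a secreted BMP antagonist (-1.06 ± 0.19 (adjusted p = 0.00234)), and ID3 (-0.60 ± 0.15 (adjusted p = 0.0254)). GREM1 lost its call in the fit of the 12 libraries alone (adjusted p 0.0504), and ID3 in 7 of 21 alternatives. Among 22 YAP and TAZ targets AJUBA was positive (0.50 ± 0.11) and WWC1 and NUAK2 were negative (-1.07 ± 0.18 and -0.92 ± 0.24). Of 21 integrin and focal adhesion genes, ITGA11 (0.73 ± 0.17), ITGA5 (0.44 ± 0.10) and ITGB4 (1.21 ± 0.31) were positive and ITGA1 (-1.09 ± 0.29) was negative. The calls of NUAK2, ITGA5, ITGB4 and ITGA1 were each lost in at least 8 of 21 alternatives, that of ITGA11 in 3 and that of AJUBA in 2.

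Of 25 immediate early genes tested, 6 had called positive interactions (FOS, FOSB, JUN, KLF2, KLF4 and KLF10) and none negative, against 1.28% positive over all genes, with a median of 0.25. The values of 8 members were negative. FOS, a subunit of AP-1, had 83.6, 75.9 and 83.5 CPM with cytokines on fractal topography, against 11.5, 9.06 and 9.84 CPM in the fractal controls. On smooth topography, FOS had 50.7, 26.1 and 30.5 CPM with cytokines, against 17.7, 21.5 and 18.3 CPM in the smooth controls. It rose on both topographies, the fractal cytokines libraries lay above all others, and the interaction was 2.10 ± 0.32 (adjusted p = 0.000618). KLF4, a Krüppel-like transcription factor, had 23, 17 and 19.2 CPM with cytokines on fractal topography, against 8.09, 7.33 and 6.35 CPM in the fractal controls. On smooth topography, KLF4 had 11.5, 14.1 and 8.63 CPM with cytokines, against 14.7, 13.9 and 12.2 CPM in the smooth controls. It rose on fractal topography, the smooth groups overlapped, and the interaction was 1.70 ± 0.29 (adjusted p = 0.000852). FOSB had 1.51 ± 0.27 (adjusted p = 0.0018), KLF2 1.16 ± 0.29 (adjusted p = 0.0299) and JUN 0.48 ± 0.12 (adjusted p = 0.0242).

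TXNIP, an inhibitor of thioredoxin and glucose uptake, had 331, 314 and 334 CPM with cytokines on fractal topography, against 129, 125 and 131 CPM in the fractal controls. On smooth topography, TXNIP had 262, 200.4 and 159 CPM with cytokines, against 258, 257 and 259 CPM in the smooth controls. It rose on fractal and fell on smooth topography, where 1 cytokines library lay just above the controls. The interaction was 1.66 ± 0.15 (adjusted p = 1.85e-07). TXNIP and ERRFI1, an inhibitor of the EGF receptor (1.13 ± 0.20 (adjusted p = 0.00192)), were the called members of 19 glucocorticoid and FOXO targets. Both were positive, against 1.28% of all genes. PDK4, a kinase that shuts off pyruvate oxidation, had 46.2, 51.8 and 38.4 CPM with cytokines on fractal topography, against 0.287, 0.0939 and 0.0582 CPM in the fractal controls. On smooth topography, PDK4 had 77.9, 63.5 and 32.2 CPM with cytokines, against 0.412, 0.115 and 0.29 CPM in the smooth controls. Both cytokines groups lay far above the controls and overlapped, and the interaction was 0.53 ± 0.97 (adjusted p = 0.895).

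Of 25 p53 targets, 3 were called positive and none negative, against 1.28% and 1.43% over all genes. The list median was 0.28. CDKN1A, the cell cycle inhibitor p21, had 138, 166 and 139 CPM with cytokines on fractal topography, against 133, 128 and 131 CPM in the fractal controls. On smooth topography, CDKN1A had 104, 105 and 114 CPM with cytokines, against 223, 236 and 235 CPM in the smooth controls. It fell on smooth topography and was not called on fractal, the smooth controls were the highest group, and the interaction was 1.28 ± 0.11 (adjusted p = 3.83e-08). SESN2, a stress-induced inhibitor of mTORC1, had 67.6, 50.9 and 58.7 CPM with cytokines on fractal topography, against 47.7, 53.3 and 50.9 CPM in the fractal controls. On smooth topography, SESN2 had 38.1, 46.8 and 20.2 CPM with cytokines, against 87.5, 86.7 and 89.8 CPM in the smooth controls. It followed the same order, with an interaction of 1.55 ± 0.26 (adjusted p = 0.00196). BTG2 had 0.91 ± 0.25 (adjusted p = 0.0452) and lost its call in 13 of 21 alternatives. Of 35 cell cycle genes 1 was called (MCM4, -0.59 ± 0.15), a share near the 2.7% over all genes, and MCM4 lost its call in 10 of 21 alternatives. With cytokines 34 of them fell on fractal and 27 on smooth topography, against 12.9% and 12.4% of all genes. The median changes of that list were -0.88 on fractal and -0.93 on smooth topography.

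**Figure D4:**
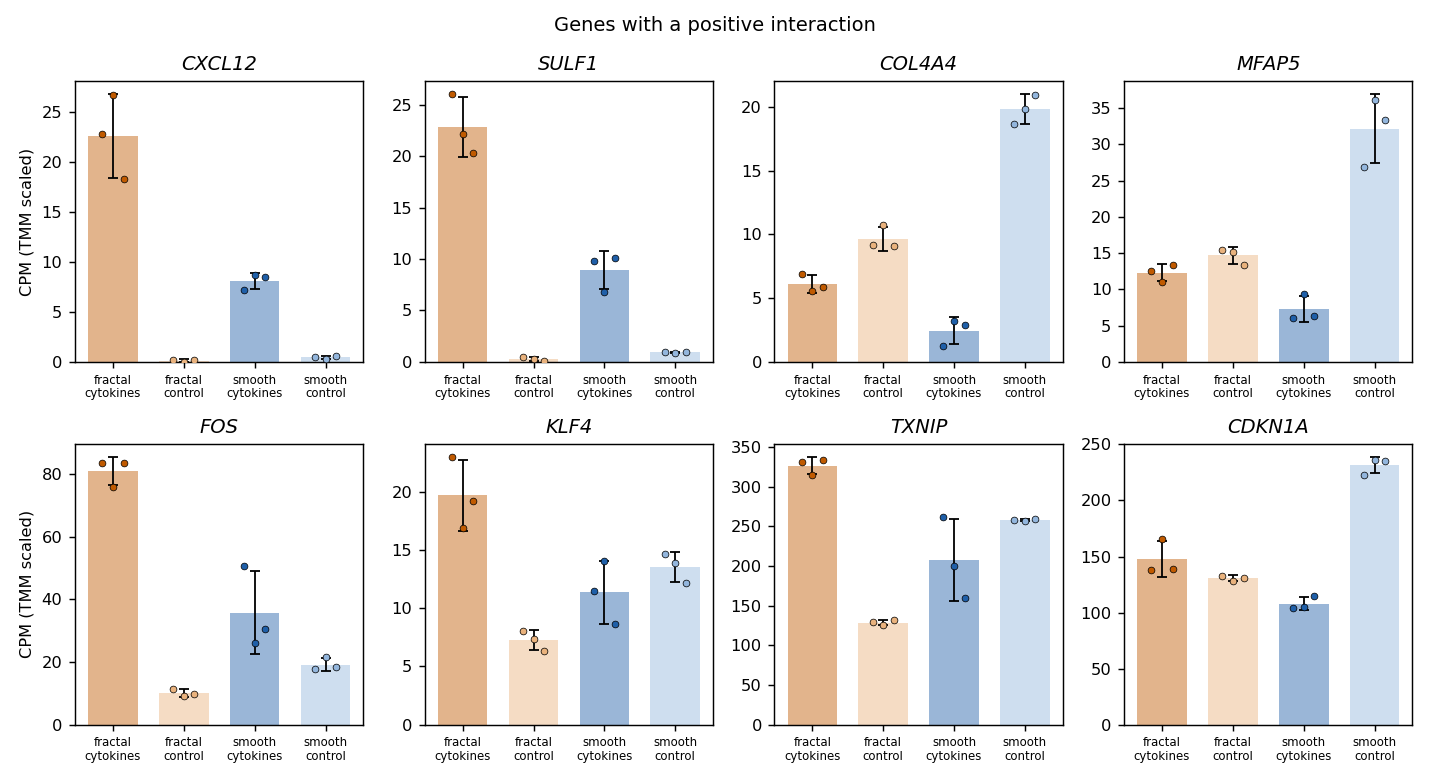
CPM of 8 genes with a called positive interaction in the 12 libraries, with points for libraries, bars for means and error bars for the SD of 3 libraries. In CXCL12, SULF1, FOS, KLF4 and TXNIP the fractal cytokines libraries are the highest, and in COL4A4, MFAP5 and CDKN1A the smooth controls are.

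Several lists held few or no called genes. None of the 31 hypoxia and glycolysis genes was called in the interaction, which for a list of this size is near the 2.7% over all genes. With cytokines 21 of them rose on fractal and 16 on smooth topography, against 13% and 13.2% of all genes. None of the 22 tested podocyte genes was called, likewise near that share, and SYNPO had 0.06 ± 0.15 (adjusted p = 0.928) with changes of 0.72 ± 0.10 on fractal and 0.66 ± 0.11 on smooth topography. A p that misses the threshold does not show that the responses were equal. Of 26 NRF2 genes only PRDX1, a peroxiredoxin, was called (-0.49 ± 0.10 (adjusted p = 0.00529)). For this list and those that follow here, the shares over all genes were 1.28% positive and 1.43% negative. Of 26 genes of the unfolded protein and integrated stress responses, SESN2 and SHMT2 were positive and DNAJC3 (-0.65 ± 0.12) and PDIA4 (-0.52 ± 0.10), of the endoplasmic reticulum, were negative. SHMT2 (0.63 ± 0.17) lost its call in 11 of 21 alternatives. Without the smooth cytokines library numbered 2, 7 genes of that list were positive, 1 hypoxia and glycolysis gene was positive, and 1 podocyte gene was positive and 1 negative. Among 23 proteases and serpins, SERPINB2 (-2.03 ± 0.25 (adjusted p = 1.25e-05)), an inhibitor of urokinase, and the lysosomal protease CTSS (-1.66 ± 0.43 (adjusted p = 0.0313)) were negative, and CTSS lost its call in 8 of 21.

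FGB, CHRD, L1CAM and FN1 were among 20 genes named whatever their values, and did not pass. FGB, a fibrinogen chain, had 204, 163 and 169.6 CPM with cytokines on fractal topography, against 306, 309 and 304 CPM in the fractal controls. On smooth topography, FGB had 39.9, 68.8 and 18.6 CPM with cytokines, against 43.5, 54.1 and 46.9 CPM in the smooth controls. It was higher on fractal topography with and without cytokines, and the interaction was -0.59 ± 0.44 (adjusted p = 0.666). CHRD, a BMP antagonist, had 0.41 ± 0.40 (adjusted p = 0.768), L1CAM, an adhesion molecule, 1.31 ± 0.60 (adjusted p = 0.327), and FN1 (fibronectin) 0.26 ± 0.16 (adjusted p = 0.539). The 13 mitochondrially encoded mRNAs had a median of -0.31 with none called, near the 2.7% over all genes. Without the smooth cytokines library numbered 2 that median was 0.0146, so its direction rests on that library.

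The remaining genes named by the size of a negative interaction were of mixed function, and several were low. SULT1B1, a sulfotransferase, had -3.09 ± 0.67 (adjusted p = 0.0102) and IL7R, the interleukin 7 receptor, -2.26 ± 0.43 (adjusted p = 0.00246). IQCD had 4.06, 6.21 and 6.11 CPM with cytokines on fractal topography, against 1.15, 0.892 and 0.931 CPM in the fractal controls. On smooth topography, IQCD had 54.2, 47.6 and 46.3 CPM with cytokines, against 2.41, 2.13 and 1.89 CPM in the smooth controls. It rose on both and reached by far the highest level with cytokines on smooth, with an interaction of -2.05 ± 0.28 (adjusted p = 5.44e-05). PDE4B, a phosphodiesterase of cyclic AMP, had -1.76 ± 0.24 (adjusted p = 4.19e-05). CD38 (-1.94 ± 0.52), TTC29 (-1.83 ± 0.45) and CDA (-1.69 ± 0.41) lost their calls in 10, 7 and 7 of 21 alternatives. On the positive side, ITPKA (2.33 ± 0.36), CLSTN2 (2.11 ± 0.44), SPON1 (1.94 ± 0.29) and H2BC21 (1.89 ± 0.52) completed the named genes. H2BC21 lost its call in 11 of 21 alternatives and CLSTN2 in 3.

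A called interaction can come from a topography difference in controls, under cytokines or in both. Among the 230 genes with a negative interaction, 148 were lower on fractal topography with cytokines and not called in controls. Another 35 were called in neither condition, 28 were higher on fractal topography in controls and not called with cytokines, 11 were lower in both and 8 were higher in controls and lower with cytokines. Among the 206 genes with a positive interaction, 83 were higher with cytokines and not called in controls. A further 55 were lower in controls and not called with cytokines, 47 were called in neither and 21 were lower in controls and higher with cytokines. The difference between topographies was larger in size with cytokines than in controls for 173 of the 230 and 110 of the 206. Between controls, ICAM1, PTGS2, INSIG1 and SCD were called higher on fractal topography, and CXCL1, CXCL8, IL6, TXNIP and CDKN1A lower. CXCL6, CXCL5, BIRC3 and TNFAIP3 were not called between controls.

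**Figure D5:**
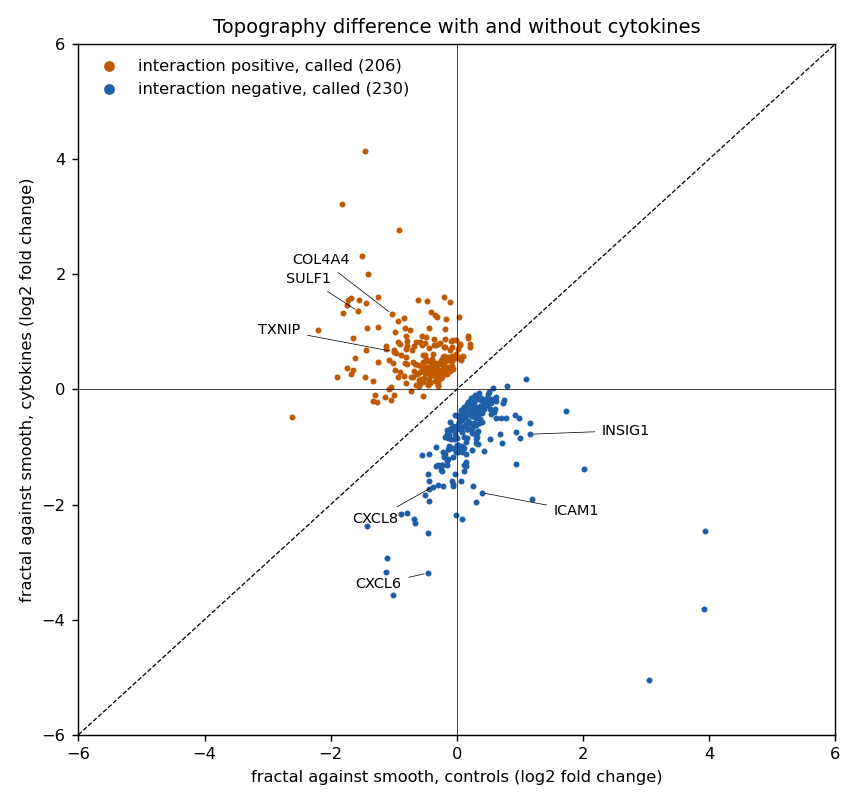
The 436 genes with a called interaction, placed by the log2 difference of fractal against smooth topography in controls (x axis) and with cytokines (y axis), with the dashed line where both are equal. The called interaction sets the side of the line, so the figure shows only how each gene's gap is shared: CXCL6 and CXCL8 lie far below 0 on the y axis, and INSIG1 lies right of 0 on the x axis.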

How the data were processed

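RNA of 18 libraries was sequenced as unstranded, poly-T selected paired reads, per the labels' protocols. The deposited table holds the authors' raw counts per gene, as whole numbers without normalization, for 58735 Ensembl identifiers. The submitters' processing notes name GRCh38 (hg38), featureCounts 1.5.0-p3, HISAT2 2.0.5 and CASAVA; the annotation is not given in the sources used here. Groups came from the sample labels. Gene positions came from GENCODE 29, which held all 58735 genes, and symbols from a current gene list (41937 genes) or else from GENCODE 29.

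Counts were tested with edgeR 4.0.16 in R 4.3.3: TMM scaling, filterByExpr (min.count 10, min.total.count 15), a mean for each of 6 groups over 18 libraries, and robust quasi-likelihood F-tests (12 residual degrees of freedom and a biological coefficient of variation of 12.2%). All p-values are adjusted by Benjamini-Hochberg over the 16129 genes kept, with a threshold of 0.05. The SE of a log2 change is its size divided by the square root of F. The members, gene lists and alternatives were chosen with earlier results of these data known, so list counts are descriptions and no list was tested. Named genes were the 15 protein-coding genes with the largest called interaction in each direction (at least 5 CPM in a group, no overlap between the 9 fractal and 9 smooth differences of log2 CPM, prior count 2), up to 3 called members of each list per direction, and 20 genes given by symbol; other called list members are named to complete a count. Some of these genes are not reported here. Alternatives were DESeq2 1.42.0, limma-voom (limma 3.58.1), scaling by RLE or by upper quartile, no filter, a 1 CPM filter, a log2 size of at least 1, the 12 libraries alone, a replicate block, and leaving out libraries. The fitting code was tested on simulated counts. Of 95 genes named by the rule, 38 overlap a gene on the other strand, which unstranded counts cannot separate. Totals over all 18 libraries ran between 11488204 and 21264180 counts; Wilson intervals cover counting error only. Promoters are RefSeq windows, found for 237 of the 436 called genes. Figures were drawn with matplotlib 3.10.9.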

Additional observations from a re-analysis of the deposited data

Results flagged for a closer look

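Effects of cytokines that were called on both topographies and pointed in opposite directions were found for 45 genes. The difference was tested by the interaction in each case. Of these, 24 genes fell on fractal and rose on smooth topography, and 21 rose on fractal and fell on smooth. Among the genes named above, the interaction was 1.66 for TXNIP, 0.95 for PTGIS, 1.81 for BGN and 1.94 for SPON1, which rose on fractal and fell on smooth topography. It was -1.94 for INSIG1, -1.35 for BIRC3, -1.29 for LAMB3, -2.56 for CSF2 and -1.69 for CDA, which fell on fractal and rose on smooth topography. CDA was not called in 7 of 21 alternatives and CSF2 in 1, limma-voom.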

How the results depend on the processing

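Counts of called genes moved with the test, and 22 alternatives were run. As reported, 436 genes were called, 206 positive and 230 negative, and the fractal response was smaller for 198 responsive genes and larger for 113. With DESeq2 the counts were 688, 338 and 350, with 179 larger, and 435 of the 436 genes were among them. In a fit of the 12 libraries alone they were 983, 452 and 531, with 415 smaller and 278 larger. Without the 2 libraries that stood apart (smooth cytokines 2 and fractal THP-1 3) they were 1461, 689 and 772, with 694 smaller and 339 larger, and 434 of the 436 were among them. A log2 size of at least 1 left 174, 93 and 81, with 85 smaller and 43 larger. Leaving out 1 library at a time gave 271 to 532 called genes, 116 to 249 positive and 152 to 283 negative, with 129 to 278 smaller and 65 to 133 larger. The lowest total came without fractal control replicate 2 and the highest without smooth cytokines replicate 2, where 380 of the 436 were among the 532. The cause of these shifts was not tested. With limma-voom 428, RLE factors 434, upper-quartile factors 434, a 1 CPM filter 466 and no filter 606 genes were called. Positive and negative calls numbered 214 and 214 with limma-voom, and 232 and 202 with upper-quartile factors. They numbered 208 and 226 with RLE factors, 225 and 241 with a 1 CPM filter, and 272 and 334 with no filter. The excess of negative calls thus did not hold under every test and scaling. The median of all genes moved by at most 0.03 on the log2 scale under these scalings, with 0.0366 under upper-quartile factors. Replicate numbers did not pair the libraries: correlations of deviations between same-numbered libraries lay between -0.049 and 0.049 over 18 pairs. A replicate block gave 416 calls, 399 of them among the 436. Of the 85 called genes chosen for naming, 56 were called under every alternative of 21 that retest the interaction, and no called gene changed sign. The median of the mitochondrially encoded mRNAs was -0.31 as reported and -0.54 to 0.0146 when 1 library was left out, the highest without smooth cytokines replicate 2, and 0.0157 without both libraries. Controls near 0 CPM limit the precision of the fold for CXCL12, SULF1, SAA1 and PDK4.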

Other observations

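Among the 45 genes with opposite called responses were several outside the lists, chosen here after their values were seen. SLC7A5, an amino acid transporter, averaged 986 CPM with cytokines and 694 CPM in controls on fractal topography, and 476 CPM with cytokines and 787 CPM in controls on smooth topography. CD24, a surface glycoprotein, averaged 157 CPM with cytokines and 95.6 CPM in controls on fractal topography, and 64.1 CPM with cytokines and 121 CPM in controls on smooth topography. Their interactions were 1.23 and 1.63.

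LIPG, the endothelial lipase, went the other way, with 138 CPM with cytokines and 174 CPM in controls on fractal topography, and 194 CPM with cytokines and 87.7 CPM in controls on smooth topography. SLC2A6, a sugar transporter, averaged 9.45 CPM with cytokines and 13.1 CPM in controls on fractal topography, and 30.3 CPM with cytokines and 15.3 CPM in controls on smooth topography. Their interactions were -1.48 and -1.46. TNFRSF9, the costimulatory receptor 4-1BB, had an interaction of -1.52. These values are means of 3 libraries per group.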
